A study of Mus musculus with 4 samples.

Results

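The genes described here are 51 mouse genes that are linked to FOXJ1 or known from ciliated cells and sperm: axonemal and central-pair proteins, centrins and kinesins, kinases of the ciliary base, and proteins best known from the male germ line. They form a list of names drawn up with earlier results of these data known, and were matched to array probes by current or older symbol. Of the 51 genes, 49 had at least 1 probe, and 45 were measured, meaning that on both arrays the scanner software marked a probe as well above background for 1 genotype or both. These 45 were read among 18607 measured genes.

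Mouse embryos were taken at the early headfold stage (about E7.75), and the distal piece holding the ventral node was cut off. All embryos carried a GFP allele of Noto, on a mixed Sv129/CD-1 background. Heterozygotes had genotype Noto GFP/+ and homozygotes Noto GFP/GFP, and none of the samples is labelled wild type, although the design text calls one side wildtype. Pieces were collected in pools of 120 to 150, and the labels name the piece in one field as the distal portion cut at the middle and in another as the most distal of 3 portions. One RNA pool of each genotype was labelled and hybridised on 2 Agilent 2-colour arrays. On array 1 the homozygote carried Cy5 and the heterozygote Cy3, and on array 2 the dyes were exchanged. The 4 samples are therefore a technical dye swap of 1 pool per genotype. No p-value can be given for any difference between the genotypes, and each ± is the SD over the 2 arrays, which covers technical spread only.

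Noto is a homeobox transcription factor of the node and notochord. The node is the left-right organiser of the mouse embryo, a shallow pit whose cells carry single cilia. The rotation of motile cilia in the pit drives a leftward flow. FOXJ1 is the forkhead factor that switches on genes for motile cilia, often together with RFX factors, and Foxj1 in the node depends on Noto. A motile cilium is built from a basal body and an axoneme of microtubule doublets with dynein arms. Most motile cilia and sperm tails, though usually not node cilia, also have radial spokes and a central pair of microtubules. The series asked which genes act downstream of FOXJ1 in such cells. The comparison described here asks which of the ciliated-cell genes had a different level in the node-containing piece when both alleles of Noto carried GFP.

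Short stretches of the promoters show the DNA patterns that FOXJ1 and RFX factors are known to bind and that were looked for in these genes. The promoter tables are from RefSeq (assembly GRCm38.p6) and run from 250 bases before to 50 bases after each gene's start. They held 45 of the 51 genes and 27025 genes in all. The first 4 stretches are from genes that were lower in the homozygote, and the next 3 are from the other genes that hold paired RFX half-sites. The last 2 are the only members with a complete forkhead core. Capitals mark the match, each stretch runs 5′ to 3′ on the gene's own strand, and the coordinates are on that build.

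Fam183b, paired RFX half-sites, chr11:58801961-58802006, minus strand: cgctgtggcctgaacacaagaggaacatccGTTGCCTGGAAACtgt
Meig1, RFX half-site, chr2:3419125-3419154, minus strand: ggcggggtcggaGGAAACtgggcttggctc
Fam166b, RFX half-site, chr4:43429318-43429347, minus strand: gctttcgcagctGTTCCCctcagcctctgc
Ccdc113, RFX half-site, chr8:95534082-95534111, plus strand: ttcagttgtctaGGCAACgcgcctcagggt
Pifo, paired RFX half-sites, chr3:106001498-106001547, minus strand: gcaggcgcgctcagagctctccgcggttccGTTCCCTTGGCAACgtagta
Ccdc96, paired RFX half-sites, chr5:36484581-36484610, plus strand: gcgccctgGTTGCCCCGGGAAACctaacag
Zbbx, paired RFX half-sites, chr3:75143774-75143846, minus strand: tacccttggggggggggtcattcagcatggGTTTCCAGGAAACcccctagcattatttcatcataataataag
Mlf1, forkhead core, chr3:67373951-67374017, plus strand: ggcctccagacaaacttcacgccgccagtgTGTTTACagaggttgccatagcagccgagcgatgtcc
Cfap43, forkhead core, chr19:47837380-47837446, minus strand: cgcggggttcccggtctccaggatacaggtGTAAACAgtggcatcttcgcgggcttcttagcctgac

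Of the 45 measured genes, 7 fell in the homozygote and 0 rose. A gene was called lower or higher when the homozygote differed from the heterozygote by a factor of 1.5 or more (0.58 in log2), with the same sign on both arrays. Fam183b, Fam166b, Meig1, Tppp3, Ccdc113, Morn5 and Cfap65 met this rule, and their means corresponded to 51.3% to 63.6% of the heterozygote level. The 7 make up 15.6% of the measured members, against 2.35% of all measured genes called lower by the same rule (437 of 18607). Among all measured genes 0.0591% were called higher (11 genes). The 38 members that were not called had mean log2 ratios between -0.54 and 0.21. In RNA from a whole piece of embryo, fewer cells of a type and less RNA per cell cannot be told apart.

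The 7 lower genes were measured well above background in all 4 samples. Fam183b, also named Cfap144 and known as a protein inside the doublet microtubules of the axoneme, had the lowest mean ratio of the members. Its log2 level was 13.42 in the homozygote and 14.33 in the heterozygote on array 1, and 12.59 and 13.62 on array 2. The highest homozygote value thus lay below the lowest heterozygote value. Here and below, such separation concerns 2 technical readings of 1 pool per genotype. How often it occurs over all genes was not counted. The log2 ratio was -0.96 ± 0.09, and the probe lies at chr11:58609032-58609091 on mouse build mm8. Fam166b, also named Cimip2b and likewise a protein of ciliary microtubules, had homozygote levels of 8.16 and 8.03 on arrays 1 and 2 and heterozygote levels of 8.83 and 9.04. The genotypes did not overlap, and the ratio was larger on array 2 (-1.01) than on array 1 (-0.67), with a mean of -0.84 ± 0.24 (probe at chr4:43448312-43448371, mm8).

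Meig1 is needed in spermatids, where it acts at the manchette, a microtubule skirt around the nucleus. Its homozygote levels were 7.83 and 7.90 and its heterozygote levels 8.57 and 8.83 on arrays 1 and 2. The groups were separate, with a log2 ratio of -0.84 ± 0.13 (probe at chr2:3326328-3326387, mm8). Tppp3 binds tubulin and promotes its assembly into microtubules. Its levels were 10.13 and 10.10 in the homozygote against 11.06 and 10.81 in the heterozygote, without overlap. The log2 ratio was -0.82 ± 0.16 (probe at chr8:108356984-108357043, mm8).

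Ccdc113 is a coiled-coil protein of cilia and forms a complex with Ccdc96 beside the radial spokes. Its homozygote levels were 8.81 and 8.88 and its heterozygote levels 9.66 and 9.57 on the 2 arrays. The groups were separate, with a log2 ratio of -0.77 ± 0.11. Its partner Ccdc96 was not called, with a log2 ratio of -0.05 ± 0.05 and homozygote levels of 11.45 and 11.76 beside heterozygote levels of 11.47 and 11.84. The 60-base probe of Ccdc113 spans 5207 bases of the genome (chr8:98435175-98440381, mm8), so that it reads spliced RNA. The sequences of that probe and of the one for Tppp3 are printed below, and their place within each RNA was not examined.

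Ccdc113 probe, mm8: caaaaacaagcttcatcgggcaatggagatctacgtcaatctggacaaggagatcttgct
Tppp3 probe, mm8: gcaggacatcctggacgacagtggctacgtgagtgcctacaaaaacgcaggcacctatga

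Morn5, a small protein with MORN repeats known from sperm and ciliated cells, had homozygote levels of 10.52 on array 1 and 9.67 on array 2, and heterozygote levels of 11.18 and 10.34. The levels of the arrays overlap, since the homozygote on array 1 exceeded the heterozygote on array 2, but within each array the homozygote was lower by the same amount. The log2 ratio was -0.67 on both arrays (probe at chr2:35901648-35901707, mm8). Cfap65 is needed for the sperm flagellum. Its homozygote levels were 8.55 and 8.20 and its heterozygote levels 9.14 and 8.92, without overlap. The log2 ratio was -0.65 ± 0.09, and on array 1 it was -0.59, at the edge of the rule (probe at chr1:74835598-74835657, mm8). Cfap65 is the only lower gene with a second measured probe, and that probe gave 0.22 on array 1 and -0.27 on array 2, a mean of -0.03 ± 0.34. The call therefore rests on the brighter of 2 probes of similar brightness.

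**Figure D1:**
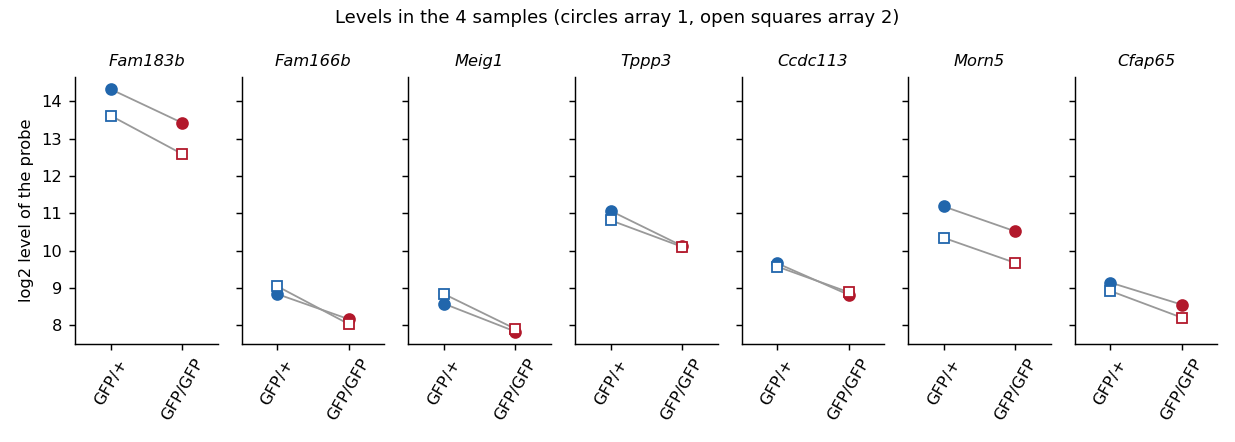
Log2 level of the probe (vertical axis) of the 7 lower genes in the heterozygote (GFP/+, blue) and homozygote (GFP/GFP, red), with circles for array 1, open squares for array 2 and a line joining the samples of 1 array. In every gene both lines run down from heterozygote to homozygote, from 14.33 to 13.42 for Fam183b on array 1, and levels of different probes are not comparable with each other.

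By role, 5 of the 7 lower genes were axonemal. Of 15 axonemal members, all measured, 5 fell (Fam183b, Fam166b, Ccdc113, Morn5 and Cfap65). That is 33.3%, against 2.35% of all measured genes and 5.19% of 77 further motile axoneme genes described below. The role groups were drawn up with earlier results known, so the split by role is a description only. Below 0 on both arrays were 11 of the 15 (73.3%), against 34.0% of all measured genes. The group's median log2 ratio was -0.17 ± 0.05, where ± for a group of genes is the SD between its array 1 and array 2 medians. Ribc2 (-0.35 ± 0.21), a protein of doublet microtubules, and Cfap69 (-0.31 ± 0.21), known from sperm tails and olfactory cilia, came next and were not called. Ribc1, the relative of Ribc2, had -0.06 ± 0.11, within its spread between arrays. The remaining axonemal values below 0 were small: Spata17 -0.17 ± 0.09, Ttc29 -0.16 and Cfap70 -0.12 ± 0.12. Above 0 lay Cfap43 at 0.12 ± 0.14, Ccdc146 at 0.14 ± 0.04 and Cyb5d1, a radial-spoke protein, at 0.21 ± 0.17, the highest value of all 45. Cfap43, needed for sperm tails and for motile cilia, is 1 of 2 members whose measured probes differ in sign. Its dimmer probe gave -0.33 and -0.75 on the 2 arrays, a mean of -0.54 ± 0.30.

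Of 8 members tied to microtubules, motors or the basal body, 6 were measured and 1 fell, Tppp3 (16.7%, against 2.35% of all measured genes). The median was -0.18 ± 0.09. The kinesin Kif9, known from the central apparatus, had -0.21 ± 0.09, and Kif27, a relative of the Hedgehog-pathway kinesin Kif7, had -0.08 ± 0.09. The centrins, small calcium-binding proteins of centrioles and basal bodies, were Cetn2 with -0.17 ± 0.05 and Cetn4 with -0.20 ± 0.44. Cetn4 was above 0 on array 1 (0.11) and below it on array 2 (-0.51), the widest gap between arrays in the set. Dcdc2a, a doublecortin-domain protein, had 0.13 ± 0.13. Kif6 and Gas2l2 had no matching probe and were not analysed here.

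None of the 7 measured members of the kinase and signalling group was called (0 lower, 0 higher). Of these 7, 6 (85.7%) were below 0 on both arrays, against 34.0% of all measured genes. The group's median was -0.22 ± 0.01. Dusp14, a phosphatase of MAP kinases, had homozygote levels of 11.33 and 11.54 against heterozygote levels of 11.73 and 11.98. The homozygote was lower on each array and the groups were separate, by -0.42 ± 0.02, and a second probe gave -0.17. Mlf1, named for its fusion gene in myeloid leukaemia and a ciliated-cell gene, had levels of 13.37 and 13.14 in the homozygote and 13.68 and 13.57 in the heterozygote. These too did not overlap, with a log2 ratio of -0.37 ± 0.09. The kinases Nek5 (-0.22 ± 0.03) and Stk33 (-0.22 ± 0.04) were below 0 on both arrays. Mak, a kinase that limits the length of cilia, had -0.09 ± 0.07, and its dimmer probe lay on the other side of 0, at 0.17 ± 0.20. Pifo, which acts at the base of the primary cilium, had -0.03 on array 1 and -0.33 on array 2. Capsl, a calcium-binding protein, had -0.06 ± 0.24 with opposite signs on the arrays. Rgs22 had a probe that was not well above background.

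Of 9 members best known from the male germ line, 8 were measured and 1 fell (Meig1), or 12.5% against 2.35% of all measured genes. Of these 8, 7 (87.5%) were below 0 on both arrays, against 34.0% of all measured genes. The group's median of -0.36 ± 0.25 was the lowest of the role groups and also the one that differed most between arrays. Morn3, which binds Meig1, had homozygote levels of 8.37 and 8.09 and heterozygote levels of 8.78 and 8.77. It missed the rule on array 1 (-0.41) and met the size on array 2 (-0.68), with a mean of -0.54 ± 0.19 and -0.14 from a second probe. Fank1, a protein of spermatocytes and spermatids, had homozygote levels of 7.82 and 7.93 and heterozygote levels of 8.08 and 8.54. These were separate by -0.43 ± 0.25, and the second probe gave -0.34. Spa17, a sperm protein that binds anchoring proteins of protein kinase A, had homozygote levels of 10.68 and 9.98 against 10.96 and 10.45. The levels overlapped across arrays but were lower in the homozygote on each, by -0.38 ± 0.14. Spata18 had -0.35 ± 0.35, and Tsnaxip1 had -0.19 ± 0.17 and was not well above background in the homozygote on array 2. Tex9 gave -0.11 ± 0.12 and Morn2 0.12 ± 0.13. Spata4 was not measured.

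Among 11 little-studied members, 9 were measured, 0 were called, and the median was -0.05 ± 0.07. The WD-repeat gene Wdr38 (-0.36 ± 0.19, and -0.17 from a second probe) and the armadillo-repeat gene Armc3 (-0.34 ± 0.07) were lowest, followed by Fbxo36 (-0.24 ± 0.11) and Fhad1 (-0.16 ± 0.20). Zbbx, Vwa3a, Ubxn11, Wdr31 and Ankrd45 lay between -0.05 and 0.05. Vwa3a was not well above background in the homozygote on array 2, while Lrriq1 and Vwa3b had probes that were not measured.

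**Figure D2:**
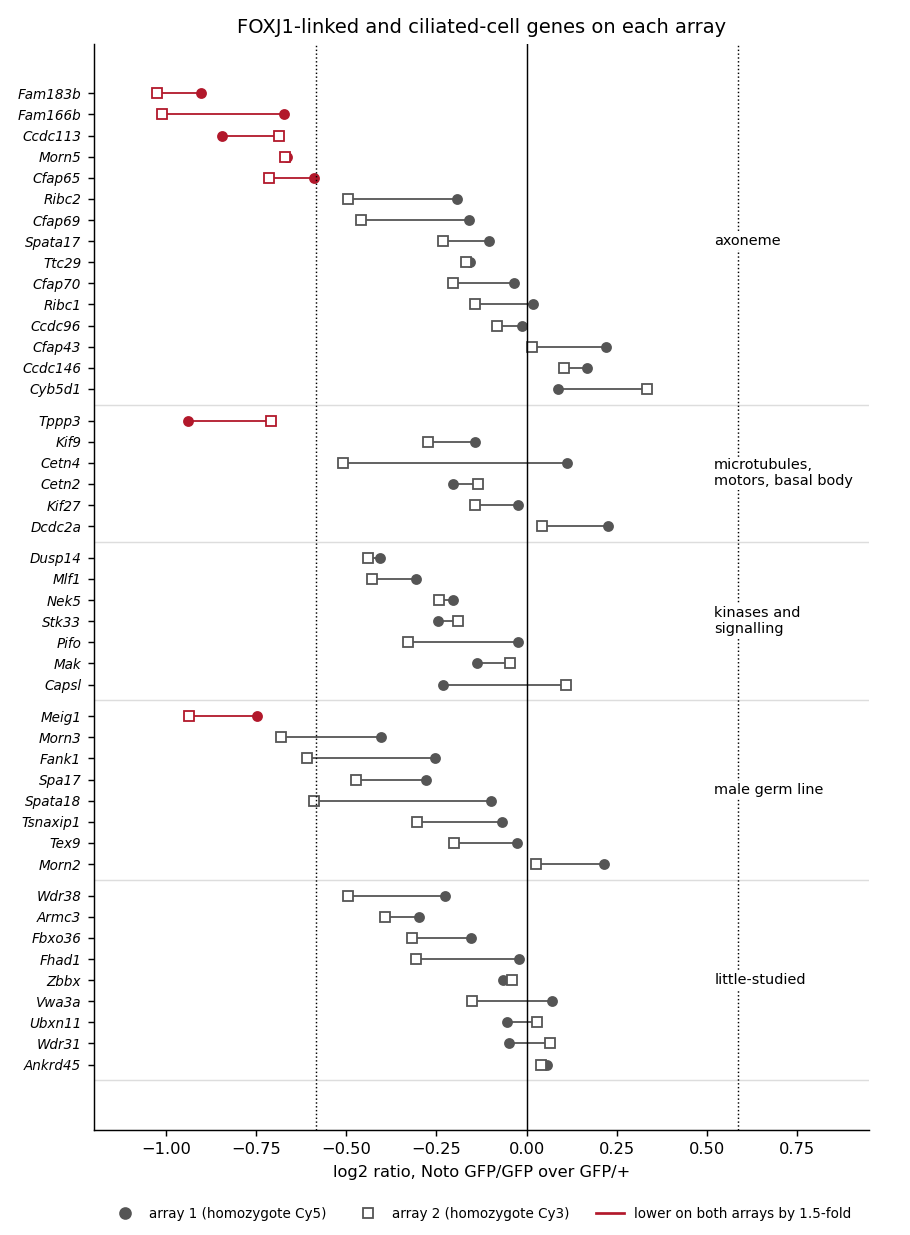
Log2 ratio of homozygote over heterozygote (horizontal axis) of each of the 45 measured genes on array 1 (filled circles) and array 2 (open squares), grouped by role, with dotted lines at 1.5-fold. The 7 lower genes, in red, have both points left of the left dotted line, and no gene reaches the right one.

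With the called genes included, ratios below 0 were frequent in the set. Of the 45 genes, 33 (73.3%) were below 0 on both arrays, against 34.0% of all measured genes. With each array centred on its median in place of loess, 21 members (46.7%) were below 0 on both arrays, against 19.9% of all genes. After loess, 6 members were above 0 on both arrays, against 25.7%. The remaining 6 had opposite signs on the arrays. The median log2 ratio of the members was -0.19 ± 0.09 and that of all genes -0.02. In 14 members the SD between the arrays exceeded the size of the mean. On each array taken alone, 7 members were lower by 1.5-fold on array 1, against 3.46% of all genes, and 10 on array 2, against 5.08%. The 3 that met the size on array 2 alone were Morn3, Fank1 and Spata18. Array 2 gave the lower ratio in 35 of 45 members (77.8%), compared with 55.1% of all genes. With array 2 left unturned, so that a gene would be called for following the dye, 0 members and 14 of all genes met the rule.

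Dim genes were called lower more often across the array, and most members were dim. Of the members, 34 lay below the median brightness of all measured genes and 11 above it. Of the 34 dimmer ones, 6 fell (17.6%), where 4.06% of dimmer genes in all did, and 25 (73.5%) were below 0 on both arrays, against 42.9%. Of the 11 brighter ones, 1 fell, Fam183b (9.09%), where 0.634% of brighter genes did, and 8 (72.7%) were below 0 on both arrays, against 25.1%. The median was -0.20 in dimmer and -0.17 in brighter members, beside -0.04 and -0.0045 over all genes.

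**Figure D3:**
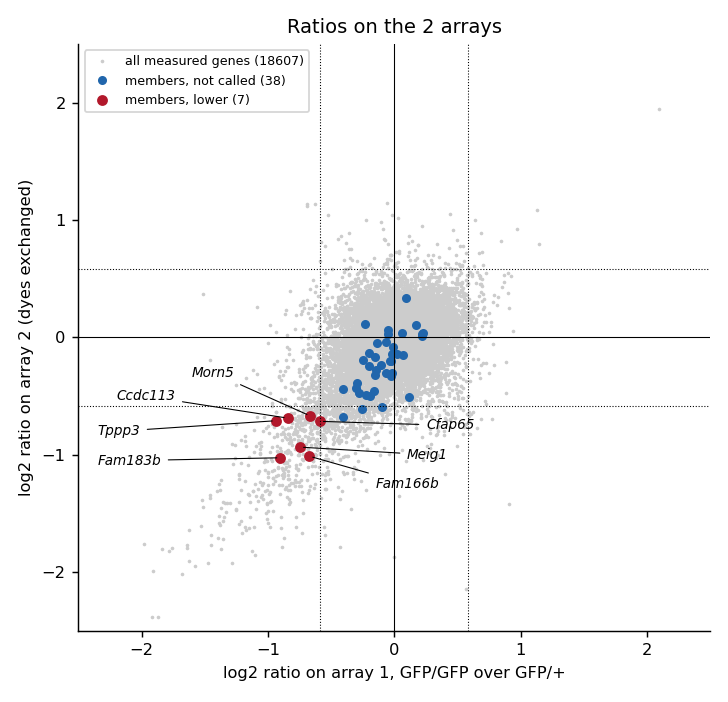
Log2 ratio of homozygote over heterozygote on array 1 (horizontal) and array 2 (vertical) of all 18607 measured genes (grey), the 38 members not called (blue) and the 7 lower members (red, named), with dotted lines at 1.5-fold. The red points lie in the lower left quadrant, outside 1.5-fold on both axes, and the blue points lie mostly below and left of 0.

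The 2 regulators that the set is tied to were measured in the same pools. Foxj1 had homozygote levels of 13.30 and 13.45 and heterozygote levels of 13.89 and 13.91 on arrays 1 and 2. The genotypes did not overlap, at 69.7% of the heterozygote level and a log2 ratio of -0.52 ± 0.09, which met the size on array 1 (-0.59) and missed it on array 2 (-0.46). Median centring gave a mean of -0.31 for Foxj1. Rfx3, an RFX factor of node and ependymal cilia, had 0.02 ± 0.01 from its brightest probe. Its dimmer measured probes gave 0.06 ± 0.20 and 0.25 ± 0.20. Of 13 measured ciliogenic regulators, Foxj1 included, 0 were called lower and 0 higher, with a median of 0.02 ± 0.03. Noto itself is not analysed here, and its level could not be used to check the genotype labels.

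Other parts of the cilium give the setting of these values. Of 99 further genes of the motile axoneme, such as dynein arms, radial spokes and tektins, 77 were measured, 4 fell (5.19%), 0 rose, and 63.6% were below 0 on both arrays, with a median of -0.24 ± 0.03. Of all measured genes, 2.35% were called lower and 34.0% were below 0 on both arrays. The share of these further axoneme genes that fell was smaller than the 15.6% of the members, and their median was lower than that of the members. Genes of intraflagellar transport, the traffic that builds all cilia, had a median of 0.01 ± 0.07 over 30 measured genes, of which 0 were called and 16.7% were below 0 on both arrays. Genes of the basal body and transition zone, also shared by immotile cilia, had -0.02 ± 0.06 over 48 measured genes, with 0 called and 29.2% below 0 on both arrays. These lists were not tested against each other or against the members.

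**Figure D4:**
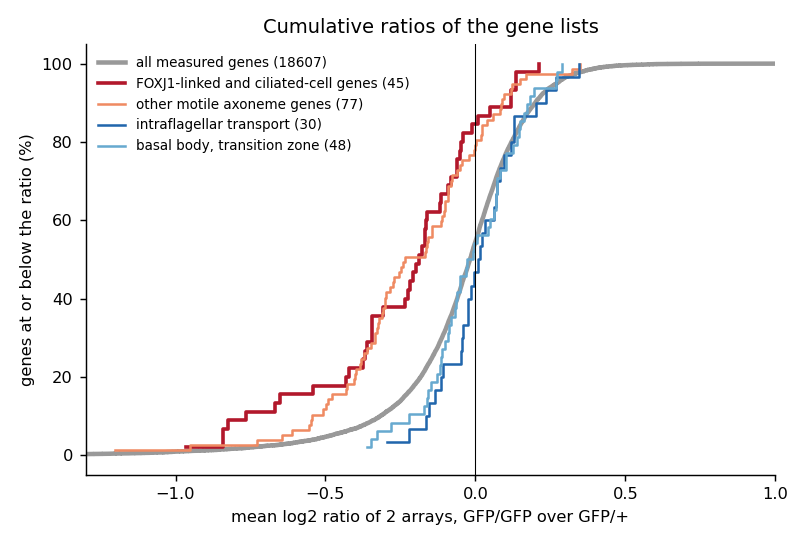
Percentage of genes (vertical axis) at or below each mean log2 ratio of homozygote over heterozygote (horizontal axis) for all measured genes, the members and 3 other cilium lists, with the number of measured genes in the key. The curves of the members and of the other motile axoneme genes lie left of that of all genes (medians -0.19 and -0.24 against -0.02), while the curves of intraflagellar transport and of the basal body and transition zone cross 0 near their middle.

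Markers of the labelled tissue were present. Of 15 node and notochord markers, Foxj1 included, 14 were measured, all 14 well above background in all 4 samples, and 0 were called. Their summed log2 level was 17.99 in the homozygote and 18.01 in the heterozygote on array 1, and 17.94 and 17.83 on array 2. Their median log2 ratio was -0.09 ± 0.04, and 8 of the 14 (57.1%) were below 0 on both arrays, against 34.0% of all genes. Genes that drive multiciliated cells, which the node does not contain, were measured for 4 of 8. Mcidas, Gmnc, Foxn4 and Cdc20b were not measured. The 4 measured genes, Ccno, Deup1, Myb and Trp73, were well above background in all 4 samples, and 0 were called. Their summed log2 level was 13.80 in the homozygote and 13.91 in the heterozygote on array 1, and 13.67 and 13.66 on array 2.

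Some blood genes moved with the lower members. Of 10 blood markers 8 were measured, and 6 were well above background in all 4 samples. The globin genes Hba-a1, Hba-a2 and Hbb-bt fell (37.5%, against 2.35% of all measured genes), and 0 rose. The remaining blood markers were not called. Below 0 on both arrays were 6 of the 8 (75%, against 34.0% of all genes), and 1 was above 0 on both. A summed level mostly follows the brightest markers. For the blood markers it was 13.10 in log2 in the homozygote and 14.09 in the heterozygote on array 1. On array 2 it was 12.74 and 13.67, so the groups were separate. Trophoblast and decidua markers, 5 of 10 measured, had summed levels of 12.23 and 11.64 in the homozygote and 11.78 and 11.31 in the heterozygote, with 1 marker higher. Of 10 cardiac markers 1 fell (10%, against 2.35% of all genes), with summed levels between 16.19 and 16.27 in all 4 samples. Neural markers (8 of 10 measured, 0 called) were also lower in the homozygote on each array, with summed levels of 15.14 against 15.48 on array 1 and 15.06 against 15.23 on array 2. Their median log2 ratio was -0.16 ± 0.09, and 5 of the 8 were below 0 on both arrays. Visceral endoderm markers (10 of 10 measured, 17.51 to 17.80) had 0 called. The part of these tissues in the members' ratios was not tested.

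The motifs whose sequences are printed above were counted on both strands in the promoters of the 45 members with a promoter entry. The forkhead core GTAAACA was present in 2 members (4.44%), Mlf1 and Cfap43, and in 4.05% of all 27025 genes. Neither was called, at -0.37 and 0.12. The shorter TAAACA, which lies within the core, was in 5 members (11.1%) and in 15.1% of all genes, and the 5 included Ccdc113 among the lower genes.

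The RFX half-site GTTNCC was present in 34 members (75.6%), compared with 48.8% of all genes and 49.1% of 17492 protein-coding genes. The paired RFX half-sites were GTTNCC followed after 0 to 3 bases by GGNAAC, so that each pair also counts as a half-site. They were in 4 members (8.89%), Fam183b, Pifo, Ccdc96 and Zbbx, compared with 0.936% of all genes. In Fam183b, the lowest member, the pair begins 16 bases before the start of the gene, and in Pifo it begins 20 bases before it. In Ccdc96 the pair lies just after the start. The ratios of the 4 ranged from -0.96 in Fam183b to -0.05 in Ccdc96 and Zbbx, so genes with this pattern did not share 1 value. Measured members with a half-site had a median log2 ratio of -0.17 (31 genes, 4 lower) and those without one -0.31 (9 genes, 1 lower). No promoter entry was matched for Stk33, Tppp3, Ccdc146, Cfap65, Rgs22 and Cyb5d1. A match is a description of the letters and does not show binding.

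How the values are computed moved some calls. Without loess, with each array only centred on its median, 4 members remained lower, and Fam183b, Morn5 and Cfap65 fell short on array 1. That setting moved the median of all genes to 0.12, and the members' median relative to it was -0.28, compared with -0.17 after loess. The ratios of Fam183b were then -0.29 and -1.15, those of Morn5 -0.29 and -0.73, and those of Cfap65 -0.53 and -0.76. Among members that were not called, the mean then was -0.15 for Mlf1, -0.24 for Dusp14 and -0.22 for Spa17, each smaller than after loess by over 1.5 times. Cfap65 was also lost without background correction and when its measured probes were averaged (mean -0.34). That averaging also gave -0.34 for Morn3. Fam166b, Meig1, Tppp3 and Ccdc113 stayed lower by 1.5-fold on each array under all 6 ways of processing that are plotted. After normexp and loess, with the brightest probe per gene, no member reached 2-fold on both arrays. Meig1 did so with the software's log ratio (-1.09 and -1.19) and with the deposited value table (-1.09 and -1.10).

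**Figure D5:**
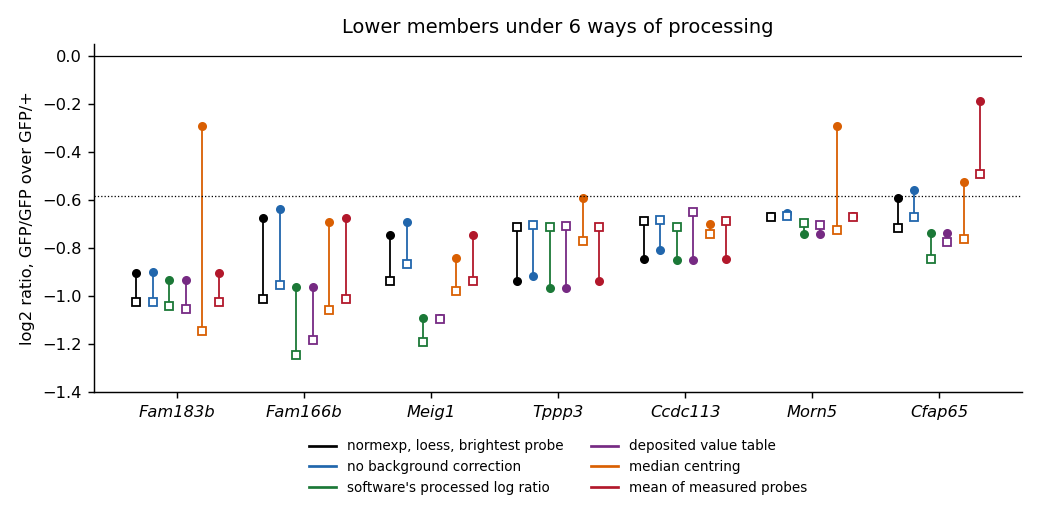
Log2 ratio of homozygote over heterozygote (vertical axis) of the 7 lower genes under 6 ways of processing (colours), with circles for array 1, open squares for array 2 and a dotted line at 1.5-fold. With median centring the array 1 points of Fam183b and Morn5 rise to -0.29, above the dotted line, and with the mean of measured probes both points of Cfap65 lie above it.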

How the data were processed

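Per the labels' protocols, DNase-treated total RNA was amplified and labelled with Cy3 or Cy5. The authors read each array with Agilent Feature Extraction 9.5.3.1, per the submitters' processing notes, and deposited foreground and background intensity per spot, flags for each spot and the log10 of Cy5 over Cy3. They also deposited a value table of linear intensity, with no centring: each column was 1.07 (array 1) or 1.28 (array 2) times the software's processed intensity of its labelled dye, with a lowest value of 15 and column medians of 109.6 (homozygote) and 110.6 (heterozygote) for array 1, then 95.1 (homozygote) and 96.2 (heterozygote) for array 2; the origin of these factors is unknown. Each array held 43379 gene spots; 64.0% to 81.5% were well above background in a channel, and 0 were saturated.

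From the intensities, limma 3.58.1 (R 4.3.3) applied normexp (offset 50) and loess within arrays with control spots at weight 0. Outlier spots were dropped (179 and 165), spots of a probe averaged, array 2 turned, and the brightest measured probe taken per gene. Loess can absorb a difference shared by many bright or dim genes. Levels are log2 values after loess and Aquantile scaling. Of 41174 probes, 27804 were measured; 33116 were named through a RefSeq table (GRCm38.p6) and 8058 kept the file's name. Code was tested on simulated data. Summaries used Python 3.11.15, numpy 2.4.6, pandas 2.3.3 and matplotlib 3.10.9.

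The members, role groups and comparison lists were chosen with earlier results of these data known. Values in every sample are given for each called member and the next 5 by size; the others by mean and SD or range. The paired samples of an array share 1 scanner file.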

Additional observations from a re-analysis of the deposited data

How the results depend on the processing

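The ratios were recomputed without background correction, from the scanner software's log ratio, from the deposited value table, with median centring, with the mean of measured probes, with a stricter filter and with none, on each array alone and at a 2-fold size rule. The members called lower numbered 6 or 7 under the alternatives other than median centring (4), the 2-fold rule (0) and the single arrays (7 to 10). Members called higher were 0 under every setting. Their median log2 ratio lay between -0.27 and -0.14 on the single arrays and between -0.21 and -0.16 under the other settings, and no called member changed sign. Of all genes, 437 were lower and 11 higher. These counts became 713 and 101 with the software's log ratio, 95 higher with the value table, 94 and 2 at 2-fold, and 644 to 945 lower and 113 to 125 higher on a single array. The cause of these shifts was not tested. No paired analysis was possible because there is no test to block, each ratio being already taken within 1 array. The split at the median brightness was added after the data were seen. With 1 pool per genotype on 2 arrays, neither biological spread nor the size of a difference in other embryos can be given, and dim probes limit ratios near background.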
